A study of Mus musculus with 18 samples.

Results

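The cell cycle and DNA replication genes described here are 39 mouse genes of the cyclin-dependent kinase, replication and mitosis machinery, followed in the livers of mice exposed to 4 chemicals. They were chosen by name: a probe set was taken where the array's annotation names exactly 1 of the 39 symbols, and the probe set with the highest mean over all arrays stood for its gene. Of the 39, 38 had such a probe set, out of 18193 genes named in this way, and 27 of them were bright enough to be tested among 12169 tested genes. No value is given for Ccnb1, for which no probe set named it alone.

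The study used 18 Affymetrix Mouse 430_2 arrays, each holding liver RNA of 1 adult female B6C3F1 mouse, with 3 mice in each of 6 groups and 13 weeks of exposure, and its title states the aim of finding expression markers that predict liver tumours in long-term rodent bioassays. Through the feed, 3 groups received 1,5-naphthalenediamine at 2000 ppm, N-(1-naphthyl)ethylenediamine dihydrochloride at 2000 ppm or pentachloronitrobenzene at 8187 ppm, and the feed control received rodent chow alone. By gavage in corn oil (5 ml/kg, 5 days per week), 1 group received 2,3-benzofuran at 240 mg/kg, and its control received corn oil. The mice were 18 weeks old at harvest. 1,5-Naphthalenediamine and 2,3-benzofuran were positive for liver tumours in the bioassays, and the other two chemicals were negative. The 3 feed chemicals were all compared with the same 3 feed control mice, so their comparisons share those arrays. Each array is 1 whole liver sample, in which fewer cells of a type and less RNA per cell cannot be told apart.

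A cell enters division when D-type cyclins, bound to Cdk4 or Cdk6, and then cyclin E, bound to Cdk2, phosphorylate the retinoblastoma protein and free E2F factors, which switch on the genes of DNA synthesis. Cyclin A and cyclin B with Cdk1 then drive S phase and mitosis, under kinases of the Polo and Aurora families and a checkpoint that holds the anaphase-promoting complex back until chromosomes are attached. In adult liver most hepatocytes rest outside the cycle and return to it after tissue loss or under mitogens, and cyclin D1 is the usual gate of that return.

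Values are the deposited log2 signals, in which a step of 1 is a doubling. The 75th percentile of the signal was 6.10 to 6.26 on the control arrays and 6.32 to 6.41 on the exposed arrays. The median change of all tested genes was 0.18 with 1,5-naphthalenediamine, 0.11 with benzofuran, 0.16 with N-(1-naphthyl)ethylenediamine and 0.15 with pentachloronitrobenzene, and 0.04 between the control groups. Changes below are therefore log2 differences minus that median, with the standard error of the limma fit, and the folds are computed from them. A call is a limma adjusted p under 0.05 on the deposited scale, and calls are also given after subtracting from every array its own median over these genes (centring). The 10 hepatocyte markers checked, albumin among them, all passed the filter, and their summed log2 signal was 16.89 to 17.04 on every array. The 5 arrays with the highest 18S ribosomal signal all came from exposed mice (benzofuran animals 6 and 10, N-(1-naphthyl)ethylenediamine animals 12 and 14, 1,5-naphthalenediamine animal 4). The mean RNA integrity number was lowest in the N-(1-naphthyl)ethylenediamine group (7.7 to 8.1, against 8.8 to 9.1 in the feed control). The lowest single value, 7.4, was that of corn oil animal 24. The corn oil group ran from 7.4 to 8.8 and the benzofuran group from 8.3 to 9.4.

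Many of the members were dim. A gene was tested when its probe set exceeded the array's own median, which lay between 4.25 and 4.35, on at least 3 of the 18 arrays. Above the median on all 18 arrays were 18 members: the D cyclins Ccnd1, Ccnd2 and Ccnd3 with Cdk4 and Cdk6, Ccne1 and Cdk2, Mcm6, Mcm7, Pcna, Rrm1, Tk1, Cdk1, Foxm1, Plk1, Mad2l1, Cdc20 and Cenpa. A further 9 passed on 3 to 17 arrays, namely Mcm2, Mcm3, Mcm4, Mcm5, Rrm2, Ccna2, Ube2c, Mki67 and Prc1. Of the 11 that did not pass, Aurka, Ccnb2, E2f1 and Top2a exceeded the median on 1 array and Bub1b on 2, while Ccne2, Cdc6, Tyms, Aurkb, Bub1 and Birc5 stayed below the median of every array. A filter that left out any single group passed 27 members, or 26 without corn oil or without N-(1-naphthyl)ethylenediamine. Mki67 was the member lost, since it passed on 4 arrays: corn oil animals 22 and 24 and N-(1-naphthyl)ethylenediamine animals 12 and 15.

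Of the 27 tested members 11 were called in at least 1 comparison, 5 of the 7 tested G1 regulators and 6 of the 20 tested replication and mitosis members. The share of all tested genes called in at least 1 comparison was not counted, and 1,5-naphthalenediamine alone called 39.9% of them. No excess of members or of G1 regulators is therefore claimed. The G1 regulators made 15 of the 21 calls in the 4 chemicals on the deposited scale, where the 3 feed chemicals share their control mice. Their share of the calls was lower with each chemical after centring, as given below. On the deposited scale each feed chemical called a smaller share of members than of all genes, and benzofuran about the same share. With 1,5-naphthalenediamine 3 members were higher and 2 lower, which is 18.5% of the 27 beside 39.9% of all tested genes (31.5% higher and 8.41% lower). With 2,3-benzofuran 6 were higher and 3 lower, 33.3% beside 32.3% (24.8% higher and 7.58% lower). N-(1-naphthyl)ethylenediamine gave 2 higher and 2 lower, 14.8% beside 29.1% (24.7% higher and 4.37% lower). Pentachloronitrobenzene gave 1 higher and 2 lower, 11.1% beside 18.5% (14.6% higher and 3.87% lower). Between the corn oil and feed controls limma called no member, with 0.123% of all genes called before centring and 0.0657% after. Called in no comparison were 16 members.

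**Figure D1:**
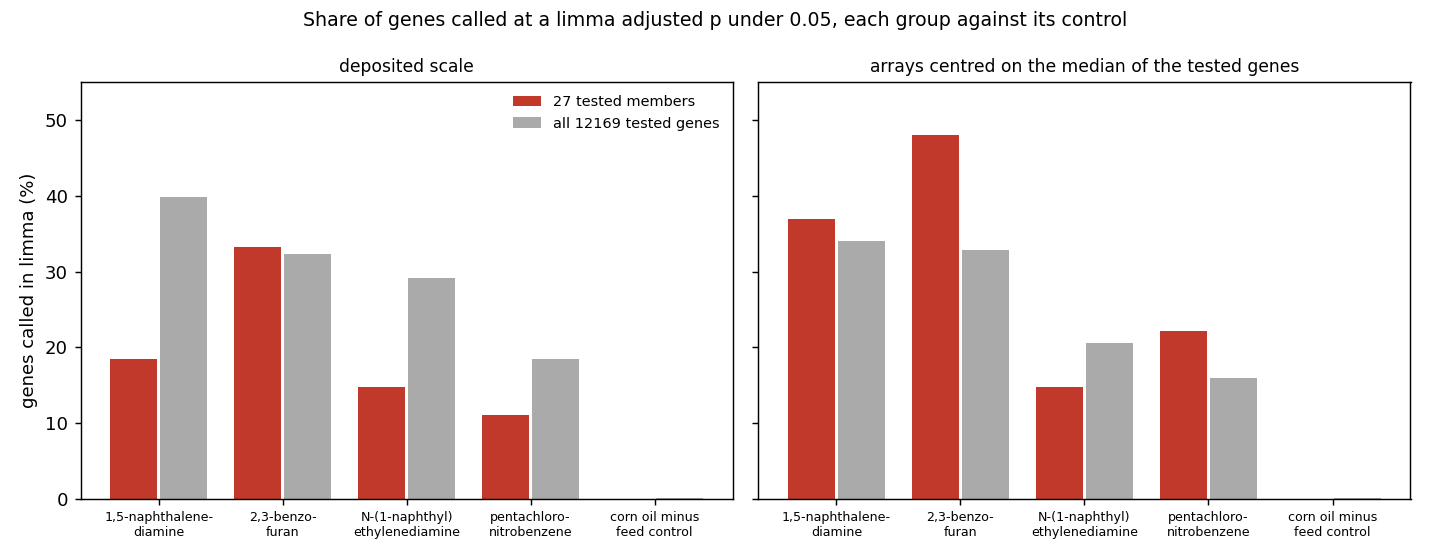
The bars give the percentage of genes called (limma adjusted p under 0.05), from 0, for the 27 tested members (red) and all 12169 tested genes (grey) in 5 comparisons, on the deposited scale (left) and with arrays centred on the tested genes (right). On the deposited scale the members' share is under the background for the 3 feed chemicals and near it for benzofuran, while after centring it is above the background for benzofuran (48.1% against 32.8%).

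Centring turned the balance of the calls towards lower. The split of higher and lower members went from 3 and 2 to 2 and 8 with 1,5-naphthalenediamine, beside 9.22% and 24.9% of all genes (34.1% in all). With benzofuran it went from 6 and 3 to 4 and 9, beside 11.2% and 21.5% (32.8% in all). With N-(1-naphthyl)ethylenediamine it went from 2 and 2 to 1 and 3, beside 5.49% and 15.1% (20.6% in all), and with pentachloronitrobenzene from 1 and 2 to 0 and 6, beside 2.56% and 13.4% (15.9% in all). The members called lower only after centring were Ccnd2, Mcm5, Plk1, Prc1, Rrm2 and Ube2c with 1,5-naphthalenediamine, Cdc20, Mki67, Pcna, Plk1, Prc1 and Tk1 with benzofuran, Ube2c with N-(1-naphthyl)ethylenediamine, and Foxm1, Mcm3, Plk1 and Rrm1 with pentachloronitrobenzene. Mki67 would not have passed the filter without the corn oil arrays, so its lower call against them carries no weight. Among the members called lower only after centring, the mean log2 signal was 9.20 for Pcna, 7.36 for Tk1, 6.51 for Ccnd2, 6.40 for Cdc20 and 5.86 for Rrm1. The rest had means under 5: Plk1 4.81, Foxm1 4.68, Mcm5 4.61, Rrm2 4.44, Mcm3 4.37, Prc1 4.31, Ube2c 4.18 and Mki67 4.14. The 12 tested members with a mean under 5 had a median deposited change of -0.07, -0.13, -0.03 and -0.10 in the 4 chemicals, in the order just used, and all 2630 tested genes with a mean under 5 had -0.11, -0.09, -0.05 and -0.10. Genes with a mean of 7 to 8 had 0.32, 0.25, 0.27 and 0.24. The part of signal level in the calls after centring was not tested.

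The median change of the 27 members was -0.22 with 1,5-naphthalenediamine, -0.20 with benzofuran, -0.17 with N-(1-naphthyl)ethylenediamine and -0.19 with pentachloronitrobenzene, where all tested genes have 0. The 7 tested G1 regulators (Ccnd1, Ccnd2, Ccnd3, Cdk4, Cdk6, Ccne1 and Cdk2) ranged from -1.59 to 1.07 with 1,5-naphthalenediamine, and the 20 replication and mitosis members from -0.79 to 0.21. Of the 5 calls with that chemical all were G1 regulators, and of the 9 with benzofuran 5 were. After centring, the G1 regulators were 5 of 10 calls with 1,5-naphthalenediamine, 3 of 13 with benzofuran, 2 of 4 with N-(1-naphthyl)ethylenediamine and 1 of 6 with pentachloronitrobenzene. The 12 tested members with a mean signal under 5 were all replication and mitosis members.

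**Figure D2:**
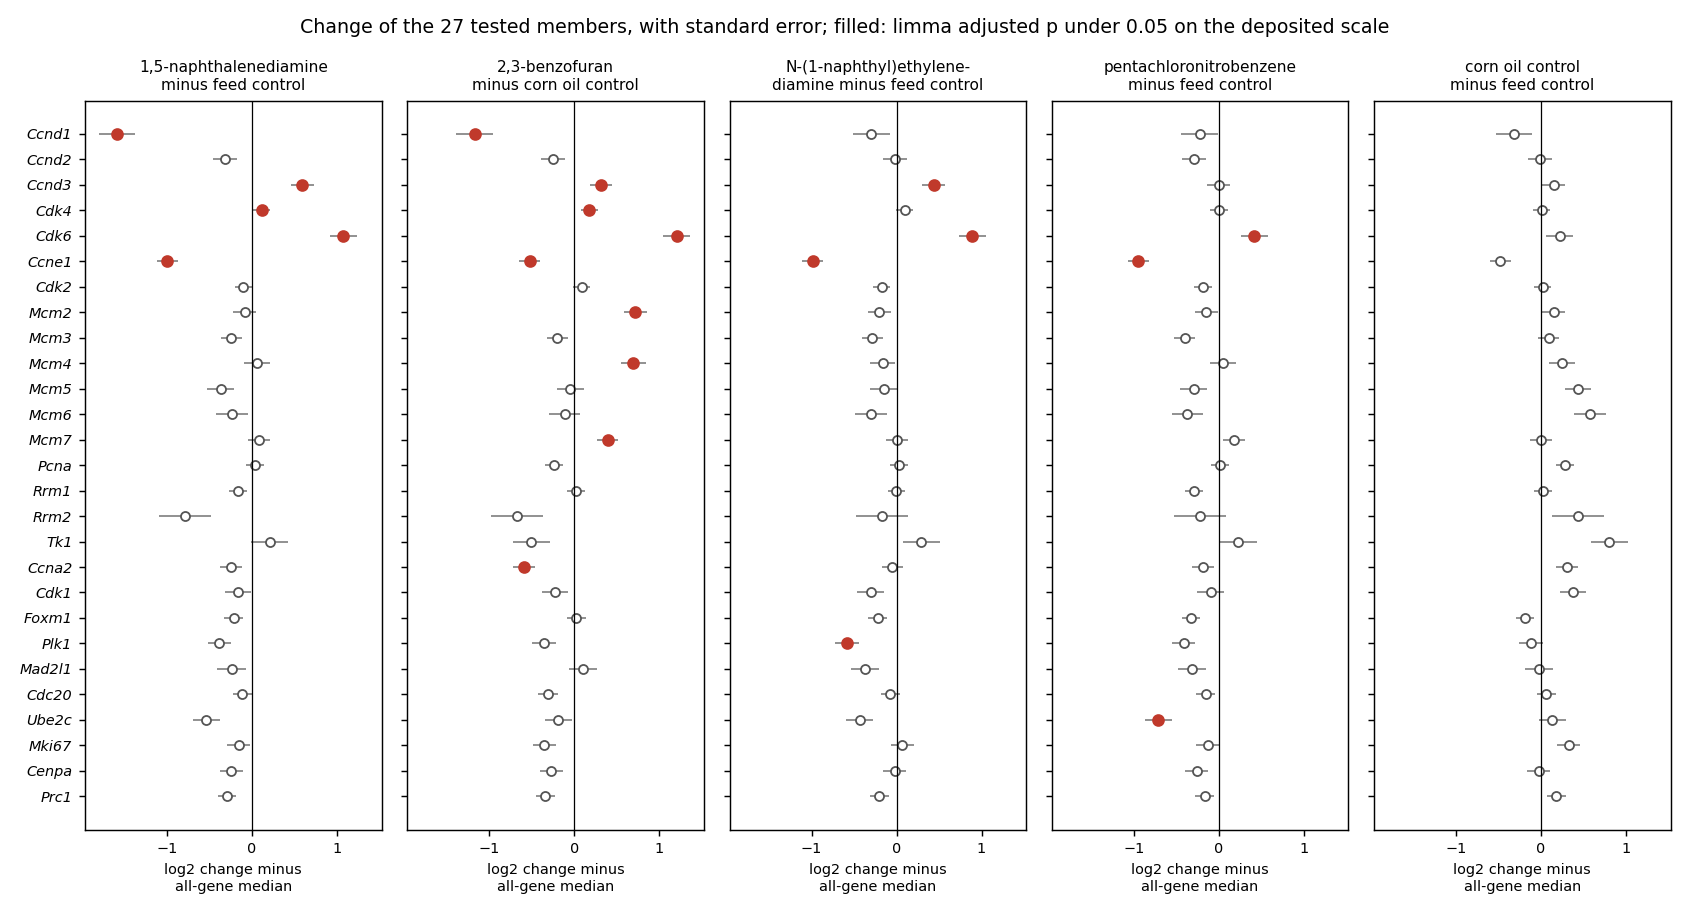
Each point is the log2 change of a tested member minus the median change of all tested genes, with its standard error, for the 4 chemicals against their controls and for the corn oil against the feed control; filled red points have a limma adjusted p under 0.05 on the deposited scale. Ccnd1 lies far left with 1,5-naphthalenediamine and benzofuran, Cdk6 lies right and Ccne1 left with all 4 chemicals, and Mcm2, Mcm4 and Mcm7 lie right with benzofuran.

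Ccnd1 encodes cyclin D1, the growth factor-induced partner of Cdk4 and Cdk6. Its log2 signal was 8.34, 9.19 and 8.75 in the feed control mice and 7.45, 7.32 and 7.27 with 1,5-naphthalenediamine. In the corn oil control it was 8.10, 9.02 and 8.32, and with benzofuran 7.66, 7.45 and 7.13. Every mouse given either of these liver carcinogens lay below every control mouse. With N-(1-naphthyl)ethylenediamine the signals were 8.47, 8.74 and 8.65 and with pentachloronitrobenzene 8.86, 8.41 and 8.79, all inside the range of the feed control.

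Ccnd1 fell by 1.59 ± 0.22 (SE) on the log2 scale with 1,5-naphthalenediamine, a 3.01-fold reduction (limma adjusted p = 0.000182), and by 1.17 ± 0.22 with benzofuran, a 2.26-fold reduction (limma adjusted p = 0.00154). Its changes with N-(1-naphthyl)ethylenediamine (-0.30, limma adjusted p = 0.643) and pentachloronitrobenzene (-0.22, limma adjusted p = 0.815) did not pass. The difference itself was tested: the mean effect of the 2 positive chemicals minus that of the 2 negative ones was -1.13 ± 0.19 (limma adjusted p = 0.00095), in a comparison that called 2 members higher and 1 lower, beside 3.8% and 3.39% of all genes (7.2% in all). With the RNA integrity number as a covariate that difference was -0.77 (limma adjusted p = 0.145) and was no longer called, and without the 5 arrays of high 18S signal it was -1.27 (limma adjusted p = 0.0302). All 3 Ccnd1 probe sets fell with both positive chemicals, by 1.39 to 1.75 with 1,5-naphthalenediamine and by 1.16 to 1.33 with benzofuran.

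Neither of the other D cyclins was called lower on the deposited scale. Ccnd3, cyclin D3, had signals of 7.54, 7.51 and 7.67 in the feed control, 8.13, 8.41 and 8.47 with 1,5-naphthalenediamine, 8.08, 8.24 and 8.18 with N-(1-naphthyl)ethylenediamine, and 7.63, 7.65 and 7.87 with pentachloronitrobenzene. The first 2 exposed groups stood wholly above the control and the third overlapped it. Ccnd3 rose by 0.59 ± 0.13, or 1.51-fold, with 1,5-naphthalenediamine (limma adjusted p = 0.000436) and by 0.44 ± 0.13 with N-(1-naphthyl)ethylenediamine (limma adjusted p = 0.0048, and 0.0679 after centring).

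With benzofuran Ccnd3 was 8.46, 7.94 and 8.14 against 7.56, 7.92 and 7.80 in the corn oil control, so that the lowest exposed mouse lay just above the highest control. This rise, 0.31 ± 0.13 (limma adjusted p = 0.0222), was not called after centring (0.222) or without benzofuran animal 10 or corn oil animal 22. Another Ccnd3 probe set gave smaller changes with no call: 0.10 with 1,5-naphthalenediamine, 0.09 with N-(1-naphthyl)ethylenediamine and -0.11 with benzofuran.

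Ccnd2, cyclin D2, was called in no comparison on the deposited scale. Its signals were 6.45, 6.50 and 6.68 in the feed control, 6.36, 6.60 and 6.25 with 1,5-naphthalenediamine, 6.94, 6.72 and 6.37 with N-(1-naphthyl)ethylenediamine and 6.30, 6.24 and 6.68 with pentachloronitrobenzene. It read 6.61, 6.64 and 6.47 with corn oil and 6.45, 6.40 and 6.46 with benzofuran. The probe sets of this gene disagreed, since 3 others above the median on all arrays changed by 0.23 to 0.56 with 1,5-naphthalenediamine where the one standing for the gene changed by -0.32, so no direction is given for Ccnd2.

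Cdk6, a kinase partner of the D cyclins, was the member called higher with all 4 chemicals. Its log2 signal was 6.83, 7.36 and 6.83 in the feed control, 8.33, 8.39 and 8.03 with 1,5-naphthalenediamine, 8.26, 7.95 and 7.93 with N-(1-naphthyl)ethylenediamine, and 7.77, 7.64 and 7.29 with pentachloronitrobenzene. In the gavage groups it was 7.27, 7.35 and 7.16 with corn oil and 8.83, 8.44 and 8.45 with benzofuran. Pentachloronitrobenzene was the exposure whose range overlapped its control, through animal 20 and feed control animal 28.

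The rise of Cdk6 was 1.20 ± 0.16, or 2.30-fold, with benzofuran (limma adjusted p = 1.97e-05), 1.07 ± 0.16, or 2.10-fold, with 1,5-naphthalenediamine (limma adjusted p = 4.39e-05), and 0.89 ± 0.16, or 1.85-fold, with N-(1-naphthyl)ethylenediamine (limma adjusted p = 0.000969). With pentachloronitrobenzene it was 0.42 ± 0.16 (limma adjusted p = 0.0256), not called after centring (0.0997) or without any 1 of pentachloronitrobenzene animals 16 and 18 and feed control animals 27 and 29 (limma adjusted p up to 0.114). A second Cdk6 probe set gave 1.40, 0.88, 0.64 and 0.21 in the same order, the last with no call. The positive chemicals exceeded the negative ones by 0.48 ± 0.14 (limma adjusted p = 0.045), a call lost when any 1 of 13 of the 18 arrays was left out. Of all 12169 tested genes, 5.15% were called higher with all 4 chemicals.

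Cdk4, the other kinase of the D cyclins, read 7.25, 7.23 and 7.14 in the feed control, 7.50, 7.54 and 7.44 with 1,5-naphthalenediamine, 7.47, 7.61 and 7.29 with N-(1-naphthyl)ethylenediamine and 7.42, 7.39 and 7.26 with pentachloronitrobenzene. It was 7.15, 7.38 and 7.23 with corn oil and 7.53, 7.65 and 7.44 with benzofuran. The calls with 1,5-naphthalenediamine (0.11 ± 0.10, limma adjusted p = 0.0315) and benzofuran (0.17 ± 0.10, limma adjusted p = 0.0395) ended after centring (0.808 and 0.488) and lay close to the shift of all genes. Another Cdk4 probe set changed by 0.52 and 0.53 in these comparisons and was called in both.

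Ccne1 encodes cyclin E1, which activates Cdk2 at the entry into S phase, and it was the member called lower with all 4 chemicals, as 1.4% of all tested genes were. Its log2 signal was 6.12, 5.77 and 6.21 in the feed control, 5.19, 5.11 and 5.33 with 1,5-naphthalenediamine, 5.01, 5.29 and 5.29 with N-(1-naphthyl)ethylenediamine, and 5.30, 5.08 and 5.32 with pentachloronitrobenzene. The corn oil control gave 5.51, 5.69 and 5.57 and benzofuran 5.23, 5.23 and 5.05. All 12 exposed mice were below all 6 controls.

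Ccne1 fell by 1.00 ± 0.12 (1.99-fold, limma adjusted p = 0.000152) with 1,5-naphthalenediamine, by 0.99 ± 0.12 (limma adjusted p = 0.000725) with N-(1-naphthyl)ethylenediamine and by 0.95 ± 0.12 (limma adjusted p = 0.000779) with pentachloronitrobenzene. With benzofuran it fell by 0.53 ± 0.12 (limma adjusted p = 0.0161), a call lost without benzofuran animal 8 or corn oil animal 24 (limma adjusted p up to 0.0686). The corn oil control differed from the feed control by -0.48 (limma adjusted p = 0.194). A second Ccne1 probe set changed by -0.63, -0.50, -0.68 and -0.59 in the order feed chemicals then benzofuran, with the N-(1-naphthyl)ethylenediamine change not called (limma adjusted p = 0.0669).

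Cdk2, the kinase of cyclin E, was called in none of the comparisons, and its changes lay between -0.19 and 0.09 in the 4 chemicals. E2f1, an activator of S-phase genes, and Ccne2, the second E-type cyclin, were not tested.

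**Figure D3:**
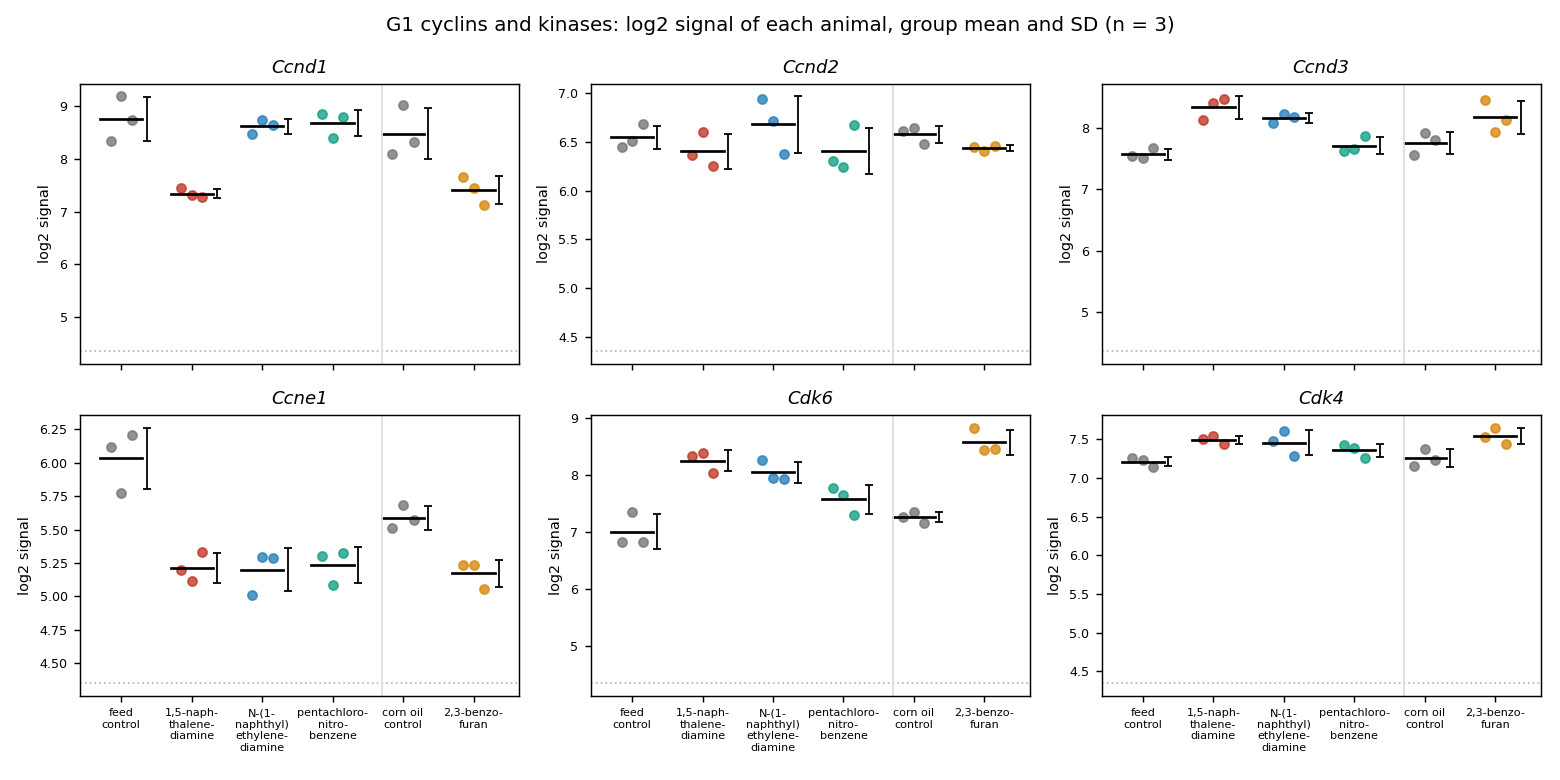
Each dot is the log2 signal of 1 mouse for 6 G1 cyclins and kinases, with the group mean (bar) and SD (whisker, n = 3); the dotted line is the highest array median, the grey vertical line separates feed from gavage groups, and each panel has its own scale. In Ccnd1 the groups given 1,5-naphthalenediamine (7.27 to 7.45) and benzofuran (7.13 to 7.66) stand below all others, and in Ccne1 all exposed groups stand below both controls.

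The MCM proteins form the ring-shaped helicase loaded at replication origins in G1, and 3 of its 6 subunits were called higher with benzofuran and none with a feed chemical. Mcm2 read 4.39, 4.23 and 4.68 in the corn oil control and 5.26, 5.08 and 5.44 with benzofuran. Feed control mice had 4.39, 4.24 and 4.11, and the 3 feed chemicals together ranged from 4.04 to 4.47. Benzofuran-treated mice thus lay above all 15 others.

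Mcm2 rose by 0.72 ± 0.14 with benzofuran, a 1.64-fold increase (limma adjusted p = 0.000288). Across chemicals, the positive exceeded the negative by 0.48 ± 0.12 (limma adjusted p = 0.0154), with a change of -0.09 for 1,5-naphthalenediamine against its own control, and that call ended with the RNA integrity number as a covariate and without the high-18S arrays (limma adjusted p = 0.0626). A second Mcm2 probe set changed by 0.05 with benzofuran (limma adjusted p = 0.232), so the rise rests on 1 of the 2 probe sets.

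Mcm4 showed 4.81, 4.51 and 4.37 with corn oil and 5.42, 5.41 and 5.28 with benzofuran, against 4.27, 4.25 and 4.33 in the feed control. It rose by 0.70 ± 0.15 with benzofuran, or 1.62-fold (limma adjusted p = 0.000873), and the benzofuran mice lay above all others. Mcm7 was 7.48, 7.58 and 7.42 with corn oil and 8.06, 8.03 and 7.90 with benzofuran, a rise of 0.39 ± 0.13 (limma adjusted p = 0.00739) with no overlap. Its feed groups ran from 7.22 to 7.88. For Mcm4 the positive chemicals differed from the negative by 0.42 ± 0.13 (limma adjusted p = 0.0573) and for Mcm7 by 0.13 ± 0.11, and neither passed. Of the other 3 Mcm7 probe sets, all above the median on every array, 1 was called (0.33), 1 changed by 0.06 and 1 by -0.25, neither called, so the direction for Mcm7 depends on the probe set.

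Without the 5 arrays of high 18S signal, which leaves benzofuran animal 8 alone in its group and assumes that it varies like the other groups, 4 members were called with benzofuran in place of 9. Mcm2 (0.90, limma adjusted p = 0.0134), Cdk6, Ccnd1 and Ccna2 were those 4, and Mcm4 had 0.61 (limma adjusted p = 0.0592). The part of the 18S signal in these changes was not tested otherwise.

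Mcm3, Mcm5 and Mcm6 did not pass with any chemical on the deposited scale. Mcm6 read 6.65, 6.59 and 6.61 with corn oil, 7.11, 6.21 and 6.52 with benzofuran and 6.09, 6.21 and 5.71 in the feed control, so that the corn oil mice lay above all feed control mice and the benzofuran mice overlapped both. Mcm5 had a mean of 4.97 with corn oil, 5.03 with benzofuran and 4.50 in the feed control. The corn oil minus feed control changes of Mcm6 (0.58 ± 0.19) and Mcm5 (0.43 ± 0.16) were not called.

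**Figure D4:**
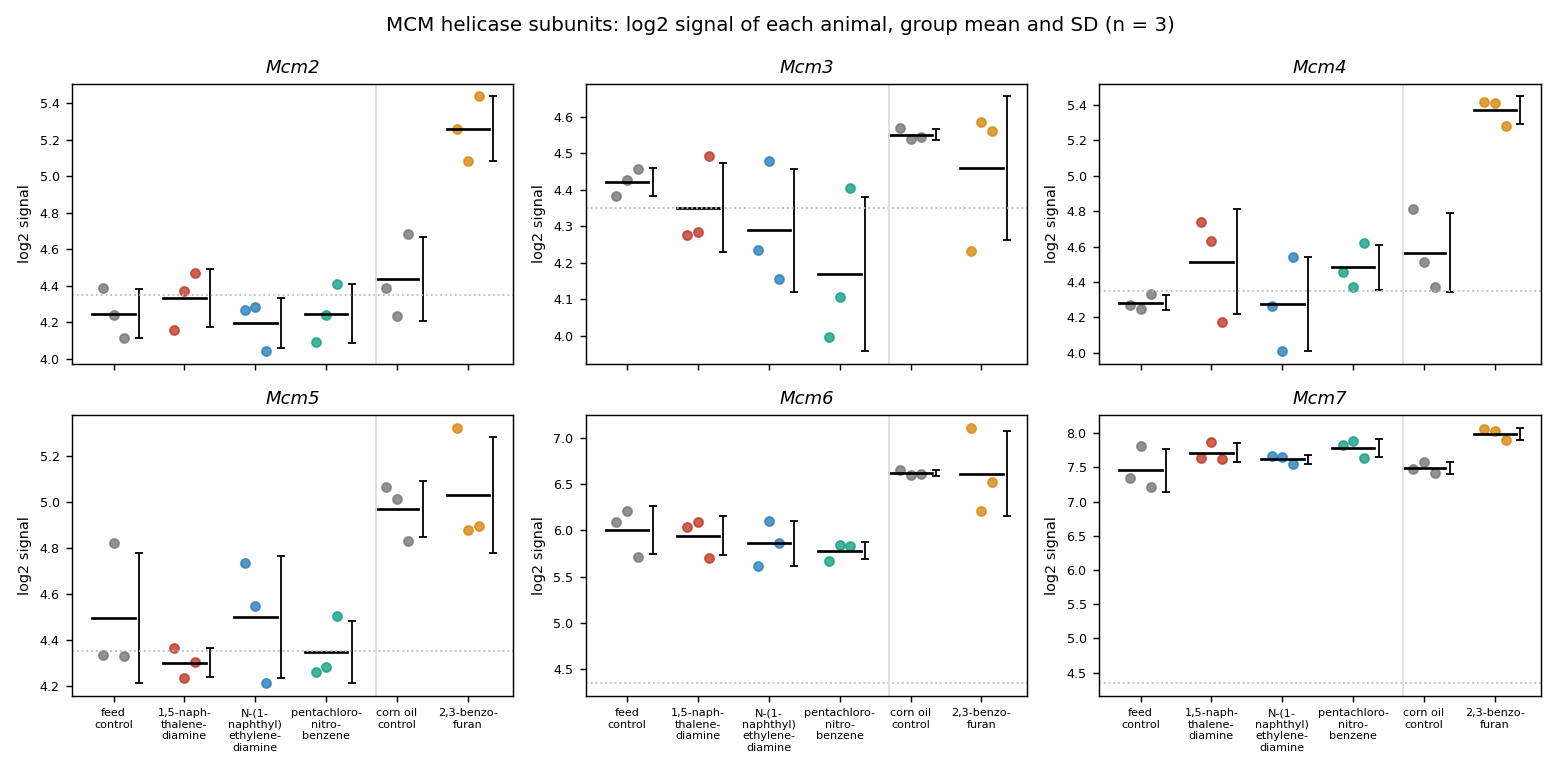
Dots are log2 signals of single mice for the 6 MCM helicase subunits, with the group mean (bar) and SD (whisker, n = 3); the dotted line is the highest array median, and each panel has its own scale. Benzofuran mice stand above all others in Mcm2 (5.08 to 5.44) and Mcm4 (5.28 to 5.42), while in Mcm5 and Mcm6 the corn oil mice lie above the feed control mice without a call.

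Pcna, the sliding clamp of the replicative polymerases, was bright: 9.17, 9.11 and 8.79 in the feed control, 9.30, 9.22 and 9.17 with 1,5-naphthalenediamine, 9.25, 9.20 and 9.17 with N-(1-naphthyl)ethylenediamine and 9.10, 9.11 and 9.33 with pentachloronitrobenzene. Its corn oil values were 9.20, 9.49 and 9.34, all above the feed control, and its benzofuran values 9.14, 9.23 and 9.26. No Pcna change was called on the deposited scale. Centring gave a call of lower with benzofuran (-0.24 ± 0.10), as did quantile normalization. Cdc6, which loads the helicase, stayed below every array median.

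Among the genes of deoxynucleotide supply, Rrm1, Rrm2 (the subunits of ribonucleotide reductase) and Tk1 (thymidine kinase) were tested and none was called on the deposited scale. Rrm2 had the widest spread of the 27, with a standard error of 0.31, and changes of -0.79 with 1,5-naphthalenediamine and -0.67 with benzofuran that did not pass. Tk1 differed by 0.80 ± 0.22 between the corn oil and feed controls without a call. Tyms, thymidylate synthase, was not tested.

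The mitotic members were mostly uncalled. Ccna2, cyclin A2, was 4.92, 4.87 and 4.75 with corn oil and 4.50, 4.50 and 4.08 with benzofuran, with no overlap, and 4.51, 4.59 and 4.42 in the feed control. It fell by 0.59 ± 0.13 with benzofuran (1.51-fold, limma adjusted p = 0.00876), a call lost without benzofuran animal 8 (limma adjusted p = 0.0579), and its second probe set fell by 0.72. The benzofuran values overlapped the feed control, and with the feed chemicals Ccna2 ran from 4.26 to 4.74. Thus Mcm4 was called higher and cyclin A2 lower than with corn oil in the same 3 livers, while the rises of Mcm2 and Mcm7 depended on the probe set.

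Plk1, a mitotic kinase of the Polo family, was 5.40, 4.96 and 4.73 in the feed control and 4.47, 4.69 and 4.64 with N-(1-naphthyl)ethylenediamine. It fell by 0.58 ± 0.14 (limma adjusted p = 0.0277), and the call was lost without animal 12 or 15 or feed control animal 27 (limma adjusted p up to 0.142). Ube2c, the ubiquitin-conjugating enzyme of the anaphase-promoting complex, was 4.23, 4.72 and 4.06 in the feed control and 3.73, 3.66 and 3.92 with pentachloronitrobenzene, all 3 below every array median. It fell by 0.71 ± 0.16 (limma adjusted p = 0.0246), and the call was lost without animal 16 or 18 or feed control animal 28 (limma adjusted p up to 0.0808).

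Cdk1, the kinase of mitotic entry, read 4.97, 4.95 and 4.89 in the feed control, 5.10, 4.85 and 4.88 with 1,5-naphthalenediamine, 4.62, 4.72 and 5.01 with N-(1-naphthyl)ethylenediamine and 4.87, 4.93 and 5.16 with pentachloronitrobenzene. It was 5.52, 5.27 and 5.25 with corn oil and 5.34, 5.52 and 4.80 with benzofuran. All 4 exposed groups overlapped their control, and none was called.

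Mki67, the proliferation antigen Ki-67, read 3.90, 3.90 and 4.26 in the feed control and 4.40, 4.63 and 4.13 with corn oil. The 12 exposed mice lay between 3.86 and 4.37, inside the span of the controls apart from 1,5-naphthalenediamine animal 5, which was lowest. No change of Mki67 was called on the deposited scale, and its changes ran from -0.36 to 0.07. Foxm1, a factor for mitotic genes, the checkpoint protein Mad2l1, the APC activator Cdc20, the centromere histone Cenpa and the midzone protein Prc1 were also uncalled on that scale.

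The members left out by the filter were looked at in a fit of all 18193 genes. Top2a, DNA topoisomerase II alpha, read 4.28, 4.24 and 4.16 in the feed control and 3.73, 3.71 and 3.58 with 1,5-naphthalenediamine. Its deposited change of -0.55 ± 0.14 was called in that fit (limma adjusted p = 0.00784), with all 6 values below their array medians. Minus the all-gene median it was -0.73, and the other Top2a probe sets gave -0.47 and -0.10. On the last, the feed control mice read 3.35, 3.55 and 3.62 and the exposed mice 3.72, 3.26 and 3.78, so the fall depends on the probe set. Aurkb, the Aurora B kinase, was called lower with 1,5-naphthalenediamine (-0.31) and N-(1-naphthyl)ethylenediamine (-0.42), and Birc5, survivin, with benzofuran (-0.56). The other 8 dim members had no call, and none was called higher. The share of all 18193 genes called in that fit was not counted.

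**Figure D5:**
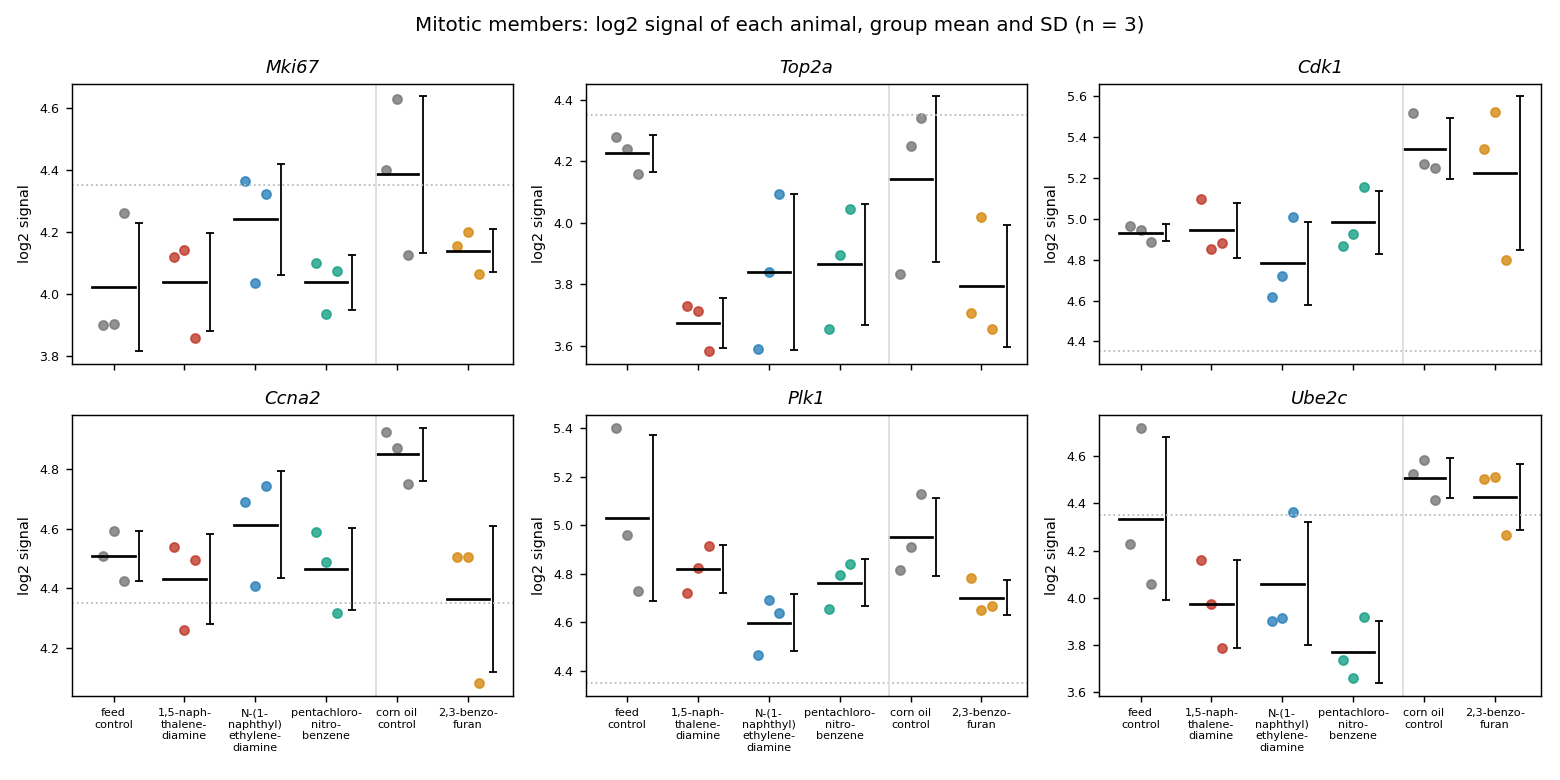
Dots are log2 signals of single mice for 6 mitotic members, with the group mean (bar) and SD (whisker, n = 3); the dotted line is the highest array median (4.35). Most values lie within 1 log2 unit of that line, and the groups overlap in most panels. Ccna2 is lower with benzofuran than with corn oil. Top2a (not in the filtered test) is lower with 1,5-naphthalenediamine than in the feed control on the probe set shown.

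Members whose groups did not overlap were counted as well. Every exposed mouse lay on 1 side of every control for 6 of the 27 members with 1,5-naphthalenediamine, beside 46.5% of all genes, for 14 with benzofuran, beside 49.2%, for 6 with N-(1-naphthyl)ethylenediamine, beside 38.2%, and for 5 with pentachloronitrobenzene, also beside 38.2%. Between the 2 control groups 9 members, or 33.3%, did not overlap, beside 11.1% of all genes, and none of the 9 was called. The corn oil group had a median change of 0.13 over the members against the feed control. At an unadjusted limma p under 0.05, Tk1, Mcm6, Mcm5, Pcna, Mki67, Ccna2 and Cdk1 had a positive difference and Ccne1 a negative one. Of these, Mki67 would not have passed the filter without the corn oil arrays. The share of all tested genes at that threshold was not counted, so no excess of members is claimed. The benzofuran changes of the members just named are measured from the corn oil values. Without feed control animal 27, 1 member, Tk1, was called higher with corn oil.

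1,5-Naphthalenediamine and N-(1-naphthyl)ethylenediamine form the 1 pair of related compounds given at the same concentration, in the same feed and for the same time. Both carry a nitrogen on a naphthalene ring, the first with a further amine on the ring and the second with an aminoethyl chain on the nitrogen, given as a dihydrochloride salt, so equal ppm is not equal moles. Between them Ccnd1 was the 1 member called, beside 5.47% of all genes (1.96% lower), and was lower with 1,5-naphthalenediamine by 1.27 (95% interval -1.72 to -0.81, limma adjusted p = 0.0018). That call ended with the RNA integrity number as a covariate (limma adjusted p = 0.107) and without the high-18S arrays (limma adjusted p = 0.114), while the difference stayed at -0.92 and -1.28.

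For the other members the intervals bound the difference without showing that the compounds act alike. Ccne1 differed by 0.02 (95% interval -0.24 to 0.28), Cdk6 by 0.21 (-0.13 to 0.55) and Ccnd3 by 0.18 (-0.10 to 0.46). Rrm2 had the widest interval, -1.24 to 0.05. Pentachloronitrobenzene differed from this pair in dose and benzofuran in dose and route, and neither was compared pair by pair.

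Other genes of the cycle were followed through lists of regulators. Their counts are set beside the shares of all tested genes called higher and lower, which were 31.5% and 8.41% with 1,5-naphthalenediamine, 24.8% and 7.58% with benzofuran, 24.7% and 4.37% with N-(1-naphthyl)ethylenediamine and 14.6% and 3.87% with pentachloronitrobenzene. After centring those shares were 9.22% and 24.9%, 11.2% and 21.5%, 5.49% and 15.1%, and 2.56% and 13.4%, and no list was tested against them. Of 7 tested CDK inhibitors and pocket proteins, 3 were higher with each of 1,5-naphthalenediamine, benzofuran and N-(1-naphthyl)ethylenediamine, 1 with pentachloronitrobenzene, and none was lower (after centring 1, 2, 0 and 0 higher, and 0, 1, 1 and 0 lower). Cdkn2c, the p18 inhibitor of Cdk4 and Cdk6, rose by 0.49 with 1,5-naphthalenediamine (limma adjusted p = 0.00103), and Rb1, the retinoblastoma protein, by 0.71 with benzofuran (limma adjusted p = 0.000519).

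Cdkn1a encodes p21, an inhibitor of cyclin-CDK complexes, and varied widely among mice. Its group means were 7.15 ± 1.01 (SD, n = 3) in the feed control, 8.31 ± 0.28 with 1,5-naphthalenediamine, 5.79 ± 0.85 with N-(1-naphthyl)ethylenediamine, 6.94 ± 1.05 with pentachloronitrobenzene, 5.50 ± 0.80 with corn oil and 7.20 ± 0.42 with benzofuran. It rose by 1.58 ± 0.53 with benzofuran (limma adjusted p = 0.0216), and its change of 0.99 with 1,5-naphthalenediamine did not pass (limma adjusted p = 0.0869). With N-(1-naphthyl)ethylenediamine its change of -1.51 was called after centring alone (limma adjusted p = 0.0606 before and 0.0455 after). The 2 positive chemicals exceeded the 2 negative ones by 2.21 ± 0.46 (limma adjusted p = 0.0056). The corn oil control, from which the benzofuran change is measured, differed from the feed control by -1.68 (limma adjusted p = 0.289).

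Of 11 tested E2F, DREAM and MYB factors, 8 were higher and 2 lower with 1,5-naphthalenediamine, 5 and 1 with benzofuran, 3 and 1 with N-(1-naphthyl)ethylenediamine and 2 and 1 with pentachloronitrobenzene. After centring these were 4 and 2, 4 and 1, 0 and 1, and 0 and 1. E2f6, a repressor of the family, rose by 0.60 with 1,5-naphthalenediamine (limma adjusted p = 6.14e-05) and 0.59 with benzofuran (limma adjusted p = 0.000129). E2f5 was called lower with all 4 chemicals and fell by 1.31 with N-(1-naphthyl)ethylenediamine (limma adjusted p = 0.00753). Its feed control mice, shared by the 3 feed chemicals, varied widely, with a mean of 9.70 and an SD of 0.94. The mean was 8.54 with an SD of 0.16 for N-(1-naphthyl)ethylenediamine.

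Among 31 tested origin and replication fork genes, 13 were higher and 4 lower with 1,5-naphthalenediamine, 8 and 1 with benzofuran, 9 and 2 with N-(1-naphthyl)ethylenediamine and 6 and 3 with pentachloronitrobenzene, and after centring 4 and 5, 5 and 5, 2 and 4, and 2 and 4. Dbf4, the activator of the Cdc7 kinase that fires licensed helicases, rose by 0.73 with benzofuran (limma adjusted p = 7.88e-05). Its group mean was 4.34 with benzofuran and 3.46 to 3.95 in the other groups, under every array median. Dbf4 would not have passed the filter without the benzofuran arrays, so this call carries no weight. Gmnn, geminin, which blocks relicensing of origins, was called higher with all 4 chemicals on the deposited scale and rose by 0.89 with 1,5-naphthalenediamine (limma adjusted p = 0.000321). After centring its benzofuran call was lost (limma adjusted p = 0.0648) and the calls with the feed chemicals were kept.

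Of the 39 listed kinetochore, spindle and cytokinesis genes 15 were tested. Called higher and lower were 5 and 3 with 1,5-naphthalenediamine, 3 and 4 with benzofuran, 1 and 3 with N-(1-naphthyl)ethylenediamine and 2 and 4 with pentachloronitrobenzene (after centring 1 and 6, 1 and 5, 0 and 5, and 0 and 5). Dlgap5, a spindle protein, fell by 0.82 with 1,5-naphthalenediamine (limma adjusted p = 0.000377) and by 0.71 with benzofuran (limma adjusted p = 0.000662), and it, the kinesin Kif23 and the chromosomal passenger protein Cdca8 were lower with all 4. Cdca8 was dim, with means of 4.85 in the feed control, 4.73 with corn oil and 4.09 to 4.21 with the chemicals.

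In the list of CDC25, WEE1 and checkpoint kinases, 7 were tested. Called higher and lower were 2 and 1 with each of 1,5-naphthalenediamine, benzofuran and N-(1-naphthyl)ethylenediamine and 1 and 1 with pentachloronitrobenzene (after centring 1 and 4, 1 and 2, 1 and 2, and 0 and 4). Atr, the kinase that senses stalled forks, rose by 1.35 ± 0.13 with benzofuran (limma adjusted p = 3.43e-07), 0.70 with 1,5-naphthalenediamine and 0.61 with N-(1-naphthyl)ethylenediamine. Cdc25c, a phosphatase that activates Cdk1, was called lower with all 4. Its mean was 4.31 in the feed control and 4.36 with corn oil, but 3.89 to 3.96 with the chemicals, under every array median. Cdc25c passed the filter only through control arrays, so these lower calls carry no weight. Atm, the kinase that senses DNA breaks, was called higher with all 4 on the deposited scale and with none after centring.

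Of 12 tested growth signals and antiproliferative genes, 4 were higher and 1 lower with 1,5-naphthalenediamine, 1 and 1 with benzofuran, 2 and 0 with N-(1-naphthyl)ethylenediamine and 1 and 0 with pentachloronitrobenzene (after centring 2 and 2, 1 and 5, 1 and 0, and 1 and 0). Btg2, an antiproliferative gene, rose by 1.12 with 1,5-naphthalenediamine (limma adjusted p = 0.00145). Of 13 ubiquitin ligase subunits of SCF and APC, 8, 7, 1 and 3 were higher and none lower in the same order of chemicals (after centring 1 and 2, 5 and 3, 0 and 1, and 0 and 0 higher and lower). Of 14 other cyclins and their kinases, 7, 2, 7 and 2 were higher and none lower (after centring 3 and 1, 0 and 0, 2 and 1, and 0 and 0).

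Markers of other liver cells moved in some of the same comparisons. Of 10 tested Kupffer cell and macrophage markers, 2 were lower with 1,5-naphthalenediamine and 4 with benzofuran (7 and 9 after centring), none was called with N-(1-naphthyl)ethylenediamine, and 1 was higher with pentachloronitrobenzene. Their summed log2 signal was 11.2 to 11.7 with 1,5-naphthalenediamine and 11.4 to 11.7 with benzofuran, against 11.5 to 12.1 in the feed control and 11.9 to 12.2 with corn oil. It was 11.7 to 12.0 with N-(1-naphthyl)ethylenediamine and 11.9 to 12.3 with pentachloronitrobenzene. The positive chemicals were below the negative ones for 5 of the 10, in the comparison in which Ccnd1 was also lower, and the part of these cells in the change of Ccnd1 was not tested.

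The 6 lymphocyte markers that were tested had a summed log2 signal of 7.64 to 7.74 in the feed control, 7.46 to 7.52 with 1,5-naphthalenediamine, 7.48 to 7.61 with N-(1-naphthyl)ethylenediamine and 7.60 to 7.67 with pentachloronitrobenzene. With corn oil it was 7.65 to 7.68 and with benzofuran 7.44 to 7.54, so that both positive chemicals and N-(1-naphthyl)ethylenediamine lay below their control without overlap, while pentachloronitrobenzene overlapped the feed control. Of these 6 markers, 1 was lower with each positive chemical and none was called with the negative ones, and after centring 5, 4, 3 and 3 were lower with 1,5-naphthalenediamine, benzofuran, N-(1-naphthyl)ethylenediamine and pentachloronitrobenzene.

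In that order of chemicals, the calls higher and lower among 9 endothelial markers were 1 and 1, 0 and 2, 2 and 0, and 0 and 0, and after centring 0 and 5, 0 and 4, 0 and 0, and 0 and 2. Among 8 stellate cell markers none was higher and 0, 1, 2 and 0 were lower (after centring 3, 4, 3 and 1). The cholangiocyte list had 3 of 6 tested, with 1, 0, 1 and 0 lower (after centring 2, 0, 3 and 1). The neutrophil list had 4 of 7 tested and no call before centring (after it, 2 lower with benzofuran and 1 with pentachloronitrobenzene), and the erythroid list 2 of 7, both called higher with N-(1-naphthyl)ethylenediamine. The part of these cells in the members' changes was not tested.

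Sequences before the genes' start sites were read for 3 short motifs on both strands, because E2F sites and the paired CHR and CCAAT boxes are the textbook marks of S-phase and mitotic promoters. RefSeq promoter sequences (GRCm38.p6), cut to the 250 bases before the start, were found for 32 of the 39 members and 27025 genes in all. An E2F match (TTTCCCGC, TTTGGCGC, TTTCGCGC or TTTGCCGC) was present in 6 of the 32, or 18.8%, against 1.92% of all genes: Cdc6, Cdk1, Cdk2, Mcm5, Mcm6 and Mcm7. A CHR match (TTTGAA) together with CCAAT was present in 7, or 21.9%, against 5.76%, and CCAAT in 68.8% against 34.5%. The CHR match alone is common, at 21.9% of members and 16.3% of all genes.

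Both matches were found in windows of members that were called and of members that were not. The 120 bases before the start of Cdk1 (chr10:69352913-69353032, minus strand) and Mcm2 (chr6:88898781-88898900, minus strand) are shown with CHR and CCAAT matches in capitals, those of Mcm6 (chr1:128359706-128359825, minus strand) with E2F matches in capitals, and those of Ccne1 (chr7:38107491-38107610, minus strand), which hold none of the 3 in this window.
Cdk1: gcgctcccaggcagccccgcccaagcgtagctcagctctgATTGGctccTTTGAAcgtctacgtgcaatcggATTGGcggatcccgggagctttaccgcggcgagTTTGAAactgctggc
Mcm2: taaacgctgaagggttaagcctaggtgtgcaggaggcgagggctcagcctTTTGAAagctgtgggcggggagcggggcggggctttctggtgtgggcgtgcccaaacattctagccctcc
Mcm6: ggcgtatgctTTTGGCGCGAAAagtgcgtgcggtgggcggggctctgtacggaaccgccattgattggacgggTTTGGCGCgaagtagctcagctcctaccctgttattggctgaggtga
Ccne1: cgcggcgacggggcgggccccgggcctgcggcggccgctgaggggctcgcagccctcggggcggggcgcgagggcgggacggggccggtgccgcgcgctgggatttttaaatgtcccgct

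In Mcm6 the first capital run is an overlap of 2 E2F matches on opposite strands. Mcm2, higher with benzofuran, and Cdk1, called in no comparison, both carry CHR and CCAAT within 250 bases, and Mcm6, called in none, and Mcm7, higher with benzofuran, both carry E2F. Ccne1, lower with all 4 chemicals, carries none of the 3 motifs in the bases shown. These are matches of letters, and no binding was measured.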

How the data were processed

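Liver RNA of 18 mice was measured on Affymetrix Mouse 430_2 arrays, and the deposited values are log2 signals of 45101 probe sets; the software behind them is not given in the sources used here. The array annotation named 1 gene for 34945 probe sets, several for 932 and none for 9160, and symbols were updated through Entrez identifiers. A gene's probe set had to exceed its array's median on at least 3 arrays. The 6 groups entered a single limma model (limma 3.58.1, R 4.3.3; 12 residual degrees of freedom, eBayes with a mean-variance trend, Benjamini-Hochberg adjustment over 12169 genes), checked first on simulated data, with 7 contrasts. The number of arrays a group (3) limits the precision, and nothing says that the groups' p-values measure more than the spread between these mice. Alternatives covered scaling, filters, probe sets, covariates and each array left out. The members, lists and rules for named genes were chosen with earlier results of these data known: values by mouse are given for members called in at least 1 contrast and for Mki67, Top2a, Pcna, Cdk1, Ccnd2 and Ccnd3. Figures used matplotlib 3.10.9 with Python 3.11.15.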

Additional observations from a re-analysis of the deposited data

How the results depend on the processing

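Of the 25 calls on members, 7 were kept under every alternative run: Ccnd1 and Cdk6 with 1,5-naphthalenediamine and with benzofuran, Cdk6 with N-(1-naphthyl)ethylenediamine, and Ccne1 with 1,5-naphthalenediamine and with pentachloronitrobenzene. Over 486 alternatives to single calls, 396 kept the call, 88 lost it with the same direction and 2 reversed: Ccnd3 with benzofuran on another probe set (-0.11) and Mcm7 with benzofuran on another probe set (-0.25). When each array was left out in turn, the members called ranged from 4 to 7 with 1,5-naphthalenediamine, 7 to 9 with benzofuran, 3 to 5 with N-(1-naphthyl)ethylenediamine, 1 to 3 with pentachloronitrobenzene (1 without animal 16 or 18), 0 to 1 between the controls (1 without feed control animal 27), 1 to 1 between the naphthylamines and 2 to 4 between positive and negative chemicals. Centring the arrays gave 10 members with 1,5-naphthalenediamine in place of 5 and 6 with pentachloronitrobenzene in place of 3. Quantile normalization and a fit of the compared groups alone each gave 1 with pentachloronitrobenzene; that fit was not run for the positive against the negative chemicals, which use all groups. A change of at least 1.5-fold on the deposited scale as a further condition left 4 with benzofuran, 1 with pentachloronitrobenzene and 1 between positive and negative chemicals. With the RNA integrity number as a covariate 2 were called with N-(1-naphthyl)ethylenediamine, 0 between the naphthylamines and 0 between positive and negative chemicals. Without the 5 arrays of highest 18S signal 4 were called with benzofuran, 0 between the naphthylamines and 1 between positive and negative chemicals, with 1 array left in 2 groups. The cause of these differences was not tested. Probe sets under the filter were not run alone. No paired analysis was possible because every animal number is unique to 1 mouse and none is shared between groups.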
